A study of Mus musculus with 169 samples.

Results

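The probe ILMN_1223516 was the sole probe of a mouse bead array that met a strict rule of forebrain detection, 1 of 25697 probes in the table. The rule asked for a detection p-value under 0.05 on every wild-type (WT) array of cortex and of hippocampus, and a detection p-value of 0.05 or more on every WT array of cerebellum. A detection p-value compares a probe with the negative-control beads of the same array, so a low value means a signal above the array's own background. A value above the threshold means that the signal was not told apart from background, and it does not show that the transcript was absent. The deposited table gives probe IDs and does not pair them with genes or with probe sequences, so the transcript behind the probe is not named here, no sequence is shown, and lists of pathway genes or marker genes could not be applied.

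The arrays measured brain tissue of mice that differ at Grn, the gene of progranulin, on a mixed background of C57BL/6J, FVB and 129Sv/Jae strains that all groups shared. The 57 mice were 19 WT (Grn+/+), 19 heterozygous (het, Grn+/-) and 19 knockout (KO, Grn-/-) animals, and whole regions were profiled from the same mice on 55 arrays of cortex, 51 of hippocampus and 48 of cerebellum. The cortex arrays came from 19 WT, 17 het and 19 KO mice, the hippocampus arrays from 16 WT, 17 het and 18 KO mice, and the cerebellum arrays from 16 WT, 15 het and 17 KO mice. Ages were 2, 6, 9, 12 and 18 months, and 1 WT and 1 KO mouse were 16 months old. Every genotype held males and females at 2 and 18 months, and the 16-month mice were male. At 6 months the WT mice were all female, while het and KO mice were of both sexes. At 9 months WT and het mice were all male and KO mice of both sexes. The labels give no sex at 12 months. Each array is 1 mouse and 1 region, and the number of arrays limits the precision. A further 15 arrays of sorted microglia belong to the same study and were not used here.

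Progranulin is a secreted glycoprotein that also reaches the lysosome, and its loss in people causes frontotemporal dementia or, when both gene copies are lost, a lysosomal storage disease. Cortex and hippocampus arise from the same part of the embryonic forebrain, and both are built around large glutamatergic pyramidal neurons with several kinds of inhibitory interneuron. The cerebellum arises from the hindbrain, and most of its neurons are small granule cells, with Purkinje cells as its output. Transcripts that are abundant in pyramidal neurons are therefore often low in the cerebellum. The rule asks only whether a probe was detected on each array, not for the size of a difference, and no cell type is assigned to the probe here. In tissue of this kind, fewer cells of a type and less RNA per cell cannot be told apart.

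The rule is strict because it asks for agreement on 51 arrays, 35 of WT forebrain and 16 of WT cerebellum. On every WT forebrain array, 9993 probes were detected, and 8312 probes were detected on no WT cerebellum array. Of the 9993, 9482 were also detected on every WT cerebellum array. ILMN_1223516 was the only probe in both sets. A further 5 probes missed it by detection on 1 WT cerebellum array, 6 by failing on 1 WT forebrain array, and 4 by 1 array on each side. These 15 probes, detected in WT forebrain and missing in WT cerebellum with at most 1 exception a side, are described below as the 15 near probes. Allowing up to 5 WT cerebellum arrays raised the number of probes detected on every WT forebrain array to 49. All these values chose the probe and support nothing about it.

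**Figure D1:**
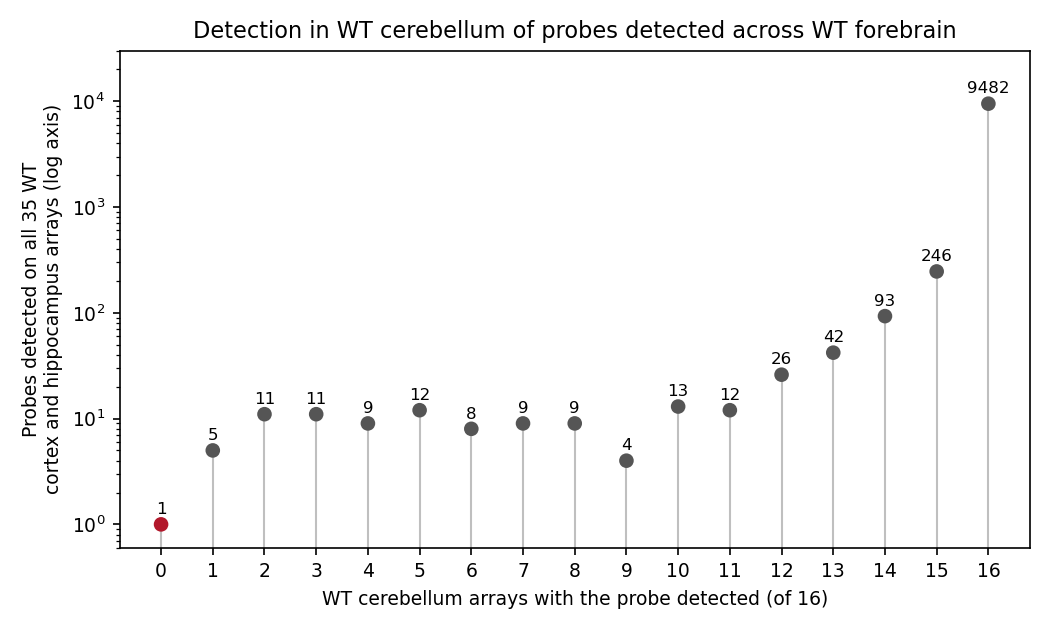
The probes detected on all 35 WT cortex and hippocampus arrays (vertical log axis) by the number of WT cerebellum arrays, of 16, on which they were detected. ILMN_1223516, in red, stands alone at 0 arrays, next to 5 probes at 1 array, while 9482 probes lie at 16.

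ILMN_1223516 was close to the threshold on both sides. Its highest detection p-value among WT forebrain arrays was 0.0476, on the cortex array of WT mouse 42 of 12 months, where its intensity was 202.1. Its lowest among WT cerebellum arrays was 0.0539, on the array of WT mouse 317 of 2 months, at an intensity of 85.1. Just outside the rule were ILMN_1227146, with a p-value of 0.0526 and an intensity of 151.4 on the hippocampus array of WT mouse 79 of 16 months, and ILMN_2753272, with the same p-value and an intensity of 154 on that of WT mouse 32 of 12 months. The next was ILMN_2634147, with a p-value of 0.0602 and an intensity of 195.2 on the cortex array of WT mouse 42. Leaving out 1 WT array at a time gave between 1 and 5 probes, with 5 when the cerebellum array of mouse 317 was left out and ILMN_1223516 alone for 43 of the 51 arrays.

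Some arrays stood apart from their label. With no gene names, region labels could not be checked against marker genes and were set against the main axis of variation of all arrays, the first principal component of probe ranks over 14360 probes, which held 30.7% of the variance. Cerebellum arrays had a median position of 11.8 on it and forebrain arrays of -5.4. The array labelled cerebellum of het mouse 307 lay at -5.99, and that labelled cerebellum of KO mouse 252 at -3.92, both among the forebrain arrays. The array labelled cerebellum of WT mouse 317 lay at 4.75, below the range of 5.6 to 16.5 of the other cerebellum arrays. The arrays labelled cortex of mice 307 and 252 lay at 0.61 and -0.89, above the range of -7.33 to -4.13 of the other cortex arrays. All of these mice were 2 months old. The fitted differences below are given with and without mice 252, 307 and 317, a choice made after the values were seen, and intensities and correlations are given over all arrays. Arrays of 2-month mice were also dimmer, with a median intensity of 79.7 to 113.7 against 127.3 to 352 on the other arrays, and they detected 47.5% to 55.5% of probes against 49.99% to 55.5%. The file headers give no slide or scan date, so age and array batch cannot be told apart.

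**Figure D2:**
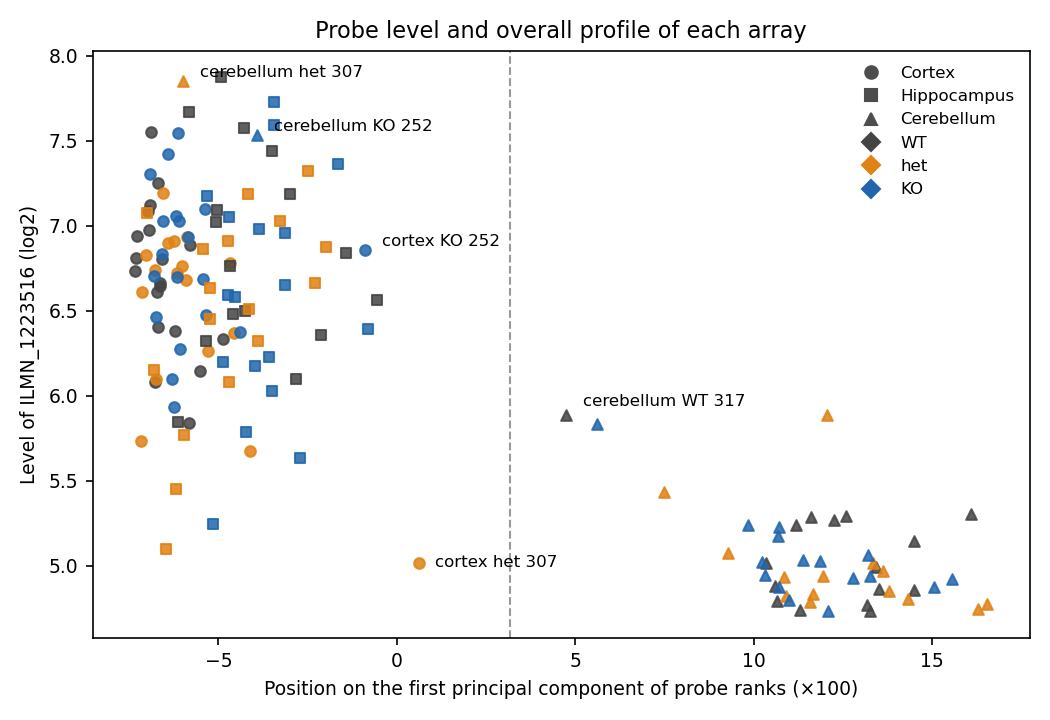
Level of ILMN_1223516 (log2 normalized intensity) on each of the 154 arrays against the array's position on the first principal component of probe ranks, with regions as shapes and genotypes as colors; the dashed line is the midpoint of the cerebellum and forebrain medians, 3.17. The arrays labelled cerebellum of het mouse 307 and KO mouse 252 lie on the forebrain side with levels of 7.85 and 7.54, while the cortex array of het mouse 307 has a level of 5.02.

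Outside the arrays of the rule, ILMN_1223516 was detected on most forebrain arrays and few cerebellum arrays, so the description "only in forebrain" holds for the WT arrays that chose it and not for all. In cortex it was detected on 14 of 17 het arrays and 19 of 19 KO arrays, beside 19 of 19 WT arrays that the rule required. In hippocampus it was detected on 15 of 17 het and 16 of 18 KO arrays, beside 16 of 16 WT arrays. In cerebellum it was detected on 2 of 15 het and 2 of 17 KO arrays, beside 0 of 16 WT arrays. The cerebellum arrays that detected it were those of het mouse 307 and KO mouse 252, which stood apart, of het mouse 309 of 2 months (intensity 89.1, p-value 0.0376) and of KO mouse 680 of 6 months (intensity 246.9, p-value 0.0313). The array of KO mouse 680 was the lowest of the other cerebellum arrays on the main axis, at 5.6. The forebrain arrays that did not detect it were the cortex arrays of het mice 35, 303 and 307 and the hippocampus arrays of het mice 247 and 305 and of KO mice 58 and 246. Over het and KO mice together it was detected on 90.1% of 71 forebrain arrays and 12.5% of 32 cerebellum arrays. At least 90% of these forebrain arrays and at most 20% of these cerebellum arrays detected 47 of the 25697 probes, of which ILMN_1223516 was 1 and 9 were among the 15 near probes.

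The deposited intensity of ILMN_1223516 was low and overlapped between regions before normalization. In cortex its intensity ran from 97.4 over a median of 209.6 to 414.9 on the WT arrays, from 76.4 over 209.7 to 449 on the het arrays and from 105.2 over 177.4 to 376.3 on the KO arrays. In hippocampus it ran from 89.2 over 171.2 to 428.7 in WT, from 79.4 over 202.7 to 502.6 in het and from 87.8 over 179.6 to 444.5 in KO mice. In cerebellum it ran from 75.6 over 148.8 to 260.8 in WT, from 73.7 over 123.2 to 209.5 in het and from 77.6 over 120.0 to 246.9 in KO mice. Its medians in forebrain were thus above those in cerebellum in every genotype, and the ranges overlapped. These ranges pool ages, and array medians ran from 79.7 to 113.7 at 2 months and from 127.3 to 352 later. The overlap is therefore not one between arrays of equal brightness.

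After background correction against the negative controls and quantile normalization (neqc), the level of ILMN_1223516 on the log2 scale separated the regions on most arrays. In cortex its level was 6.70 ± 0.43 (SD, n = 19) in WT, 6.48 ± 0.56 (n = 17) in het and 6.78 ± 0.44 (n = 19) in KO mice. In hippocampus it was 6.85 ± 0.59 (n = 16) in WT, 6.49 ± 0.62 (n = 17) in het and 6.58 ± 0.68 (n = 18) in KO mice. From high to low, the order of the forebrain groups was WT hippocampus, KO cortex, WT cortex, KO hippocampus, het hippocampus and het cortex, and each neighbouring pair differed by less than the SD of either group. Without mice 252, 307 and 317 the order changed, with het cortex above KO hippocampus (6.55 ± 0.69, n = 17) and het hippocampus (6.50 ± 0.64, n = 16). In cerebellum the level was 5.07 ± 0.31 (n = 16) in WT, 5.18 ± 0.80 (n = 15) in het and 5.19 ± 0.65 (n = 17) in KO mice, and since the probe was undetected on most of these arrays, no order is read from them. Without mice 252, 307 and 317 the cerebellum levels were 5.01 ± 0.22 (n = 15), 4.99 ± 0.31 (n = 14) and 5.04 ± 0.26 (n = 16), the het cortex level was 6.58 ± 0.43 (n = 16), and the cerebellum arrays ended at 5.89 while the cortex arrays began at 5.67 and the hippocampus arrays at 5.10, so some overlap remained.

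In WT mice, whose arrays chose the probe, the WT cerebellum gives a bound and not a level. Set against the lowest signal that each cerebellum array detected, the mean level of ILMN_1223516 was at least 1.89-fold higher in WT cortex and at least 2.1-fold higher in WT hippocampus. These bounds describe the arrays of the rule and carry no test.

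**Figure D3:**
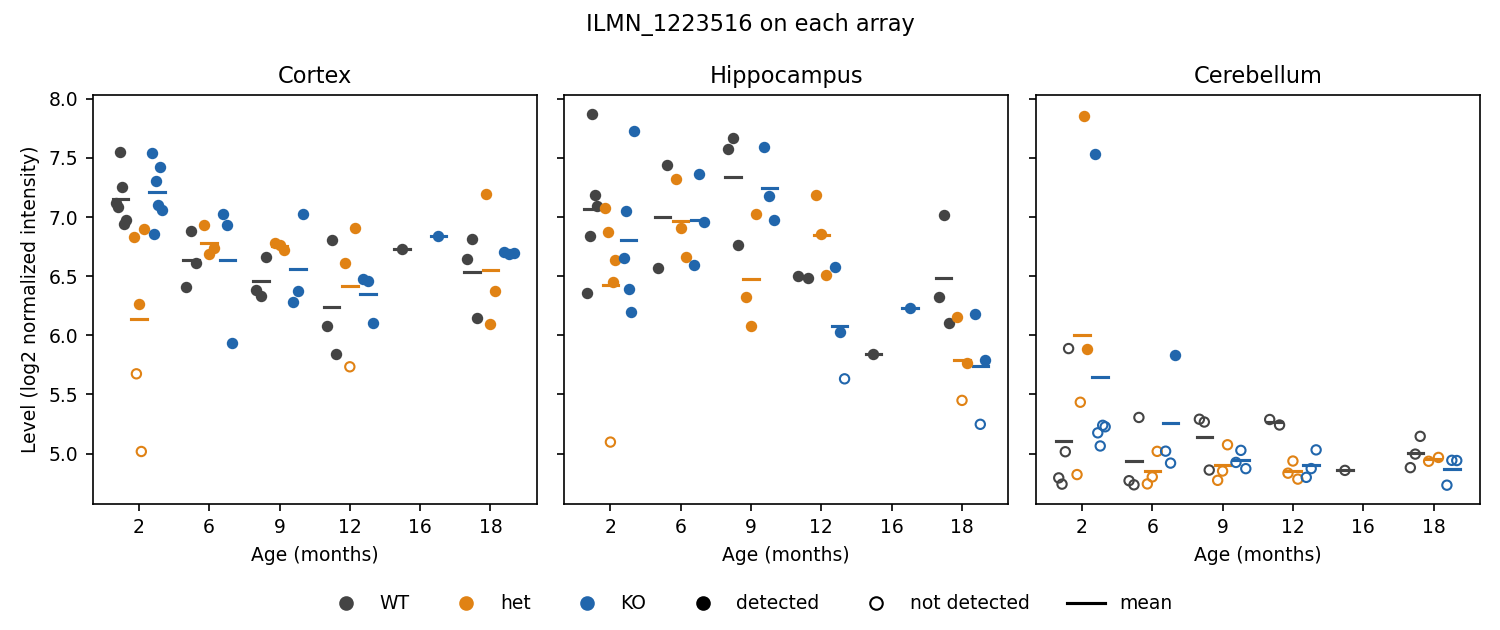
Level of ILMN_1223516 (log2 normalized intensity) on each array by age in cortex, hippocampus and cerebellum, with genotypes as colors, filled points for arrays that detected the probe, open points for arrays that did not, and bars for the mean of a genotype at an age. Most cerebellum arrays lie near 5 with open points, apart from a het and a KO array of 2 months at 7.85 and 7.54, and the het and KO hippocampus arrays of 18 months lie between 5.25 and 6.18.

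The het and KO arrays, which the rule did not use, test the region difference. In cortex of het and KO mice the level of ILMN_1223516 ran from 5.02 over a median of 6.73 to 7.55, and in cerebellum from 4.73 over 4.94 to 7.85, so the groups overlapped through the few arrays named above. ILMN_1223516 was higher in cortex than in cerebellum by 1.46 (SE 0.14, 95% interval 1.18 to 1.74) on the log2 scale, with an adjusted p of 3.66e-16 in limma with the mouse as a random block. Within mice, it was higher in cortex in 29 of 31 het and KO mice, and the mice that went the other way were het 307, by -2.83, and KO 252, by -0.68. Without mice 252, 307 and 317, it was higher in 29 of 29 mice and the fitted difference was 1.67. Region differences were common on this array: 57.2% of the 17848 probes tested passed the threshold, 26.7% as higher in cortex and 30.5% as lower. Of the probes that passed, 46.7% were higher in cortex, and 53.7% with arrays scaled to a common median in place of neqc. Since ILMN_1223516 was detected on only 12.5% of the 32 cerebellum arrays, the size of its difference depends on how signals at background are treated. With quantile normalization and no background correction, which compresses low signals, it was 0.54 with an adjusted p of 1.13e-14.

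In hippocampus the het and KO arrays ran from 5.10 over a median of 6.60 to 7.73. ILMN_1223516 was higher in hippocampus than in cerebellum by 1.37 (SE 0.14, 95% interval 1.08 to 1.65), with an adjusted p of 1.4e-14 in limma, in a comparison in which 54.9% of all probes passed and 26.2% were higher in hippocampus. It was higher in hippocampus in 27 of 30 het and KO mice, the exceptions being het 307, KO 252 and het 305 (-0.34), and in 27 of 28 without the mice that stood apart, where the fitted difference was 1.52. It was 0.52 with an adjusted p of 1.87e-13 with quantile normalization and no background correction. Between hippocampus and cortex the level of ILMN_1223516 differed by -0.09 (SE 0.14, 95% interval -0.37 to 0.18, adjusted p 0.702 in limma), where 22.3% of all probes passed, and by -0.15 (adjusted p 0.354) without mice 252, 307 and 317. Of the probes that passed, 49.3% were higher in hippocampus, and 35.2% with arrays scaled to a common median in place of neqc. ILMN_1223516 was higher in hippocampus in 15 of 33 mice, with differences from -1.44 to 1.44, the highest being that of het mouse 307. Without the mice that stood apart it was higher in 13 of 31, with differences up to 1.32.

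Age was tested over the het and KO arrays as a slope per month. In hippocampus of het and KO mice the mean level of ILMN_1223516 was 6.62 ± 0.69 (SD, n = 10) at 2 months, 6.97 ± 0.32 (n = 6) at 6 months, 6.86 ± 0.56 (n = 6) at 9 months, 6.47 ± 0.56 (n = 6) at 12 months and 5.76 ± 0.37 (n = 6) at 18 months, with 6.23 on the array of the 16-month KO mouse. The 18-month het arrays were at 6.15, 5.45 and 5.77 and the 18-month KO arrays at 6.18, 5.25 and 5.79, of which 4 of 6 detected the probe. They did not overlap the 6-month arrays, which ran from 6.60 to 7.36, and overlapped those of 2, 9 and 12 months. The slope in hippocampus was -0.056 per month (SE 0.017, 95% interval -0.091 to -0.022) on the log2 scale, with an adjusted p of 0.0089 in limma. A change of this kind was common, as 38.1% of the 16450 probes tested passed, 16.7% of all falling with age. The call rests on the 18-month arrays: without them the slope was -0.022 with an adjusted p of 0.53. Without the 2-month arrays, the dim ones, it was -0.103 with an adjusted p of 0.000511, and without mice 252, 307 and 317 it was -0.058 with an adjusted p of 0.015.

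The WT hippocampus arrays, on which detection was required, had levels of 6.32, 7.02 and 6.10 at 18 months, 5.85 on the array of the 16-month mouse, and means of 7.07 ± 0.55 (n = 5) at 2 months and 7.34 ± 0.50 (n = 3) at 9 months. In cortex the probe did not pass: the slope was -0.012 per month (SE 0.014, 95% interval -0.041 to 0.017, adjusted p 0.521 in limma), where 39.2% of all probes passed. It was -0.021 (adjusted p 0.216) without mice 252, 307 and 317. Over its 13 alternatives, including a fit with the WT arrays, it ran from -0.025 to -0.005 and passed in none. The lowest adjusted p among them was 0.0531 in limma. The cortex means of het and KO mice were 6.73 ± 0.78 (n = 11) at 2 months, 6.71 ± 0.40 (n = 6) at 6 months, 6.66 ± 0.28 (n = 6) at 9 months, 6.38 ± 0.41 (n = 6) at 12 months and 6.63 ± 0.37 (n = 6) at 18 months. The 2-month mean joins KO arrays at 7.22 ± 0.26 (n = 6) and het arrays at 6.14 ± 0.80 (n = 5), which include that of mouse 307. At 12 and 18 months KO cortex was at 6.35 and 6.70 and het cortex at 6.42 and 6.55 (n = 3 each). WT cortex, where detection was required, was at 7.16 ± 0.22 (n = 6) at 2 months. It was at 6.24 ± 0.50 (n = 3) at 12 months and 6.53 ± 0.35 (n = 3) at 18 months. The difference between the slopes of hippocampus and cortex was not tested.

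Genotype was compared within each region. KO minus het is the genotype comparison in which the rule used neither group. Its fit also held the WT arrays, which chose the probe. They enter its age and sex terms and its SE, interval and p-values. In cortex the level of ILMN_1223516 was higher in KO than in het mice by 0.30 (SE 0.15, 95% interval 0.0016 to 0.60), which did not pass the threshold (unadjusted p 0.0489, adjusted p 0.909 in limma), and 0.513% of the 16770 probes tested passed. At 2 months the het cortex arrays had levels of 6.83, 5.67, 6.27, 5.02 and 6.90 against 6.86 to 7.55 in KO mice, and the value of 5.02 is the array of het mouse 307, which stood apart. The difference was 0.18 without that array, 0.20 (adjusted p 0.889) without mice 252, 307 and 317, and -0.05 without the 2-month arrays.

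In hippocampus KO minus het was 0.13 (SE 0.17, 95% interval -0.22 to 0.48, adjusted p 0.789 in limma), where 1.12% of the 16981 probes tested passed. It was 0.11 (adjusted p 0.846) without mice 252, 307 and 317. The lowest het hippocampus array was that of het mouse 305 of 2 months, at 5.10, and without it the difference was 0.03. It was 0.07 without KO mouse 306 and 0.08 without het mouse 400.

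The comparisons with WT mice rest on WT forebrain arrays that had to detect the probe, a condition not set on the other genotypes, so they are given as descriptions with no test of ILMN_1223516. In cortex KO minus WT was 0.07 (SE 0.14, 95% interval -0.22 to 0.36), in a comparison in which 0.739% of all probes passed, and het minus WT was -0.23 (SE 0.15, 95% interval -0.53 to 0.07), where 0.0298% passed. Without mice 252, 307 and 317 these were 0.09 and -0.11. In hippocampus KO minus WT was -0.30 (SE 0.18, 95% interval -0.65 to 0.06), where 0.518% of all probes passed, and het minus WT was -0.43 (SE 0.18, 95% interval -0.79 to -0.07), where 0.0177% passed. Without these mice they were -0.31 and -0.42. The interval of het minus WT in hippocampus is negative at both ends, which is not read as a het effect. The WT arrays in that difference had to detect the probe.

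The same holds for the KO effect between regions and for its change with age. The KO minus WT difference in hippocampus minus that in cortex was -0.36 (SE 0.22, 95% interval -0.80 to 0.07), and -0.39 without mice 252, 307 and 317. In that comparison 0% of 17759 probes passed in limma, and 842 had an unadjusted p under 0.05. The slope of ILMN_1223516 in KO mice minus that in WT mice was 0.009 per month (SE 0.023, 95% interval -0.038 to 0.056) in cortex, where 0.0119% of probes passed. In hippocampus it was -0.019 per month (SE 0.030, 95% interval -0.080 to 0.042), where 0.0177% of probes passed. Without these mice the values were 0.0065 and -0.017.

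**Figure D4:**
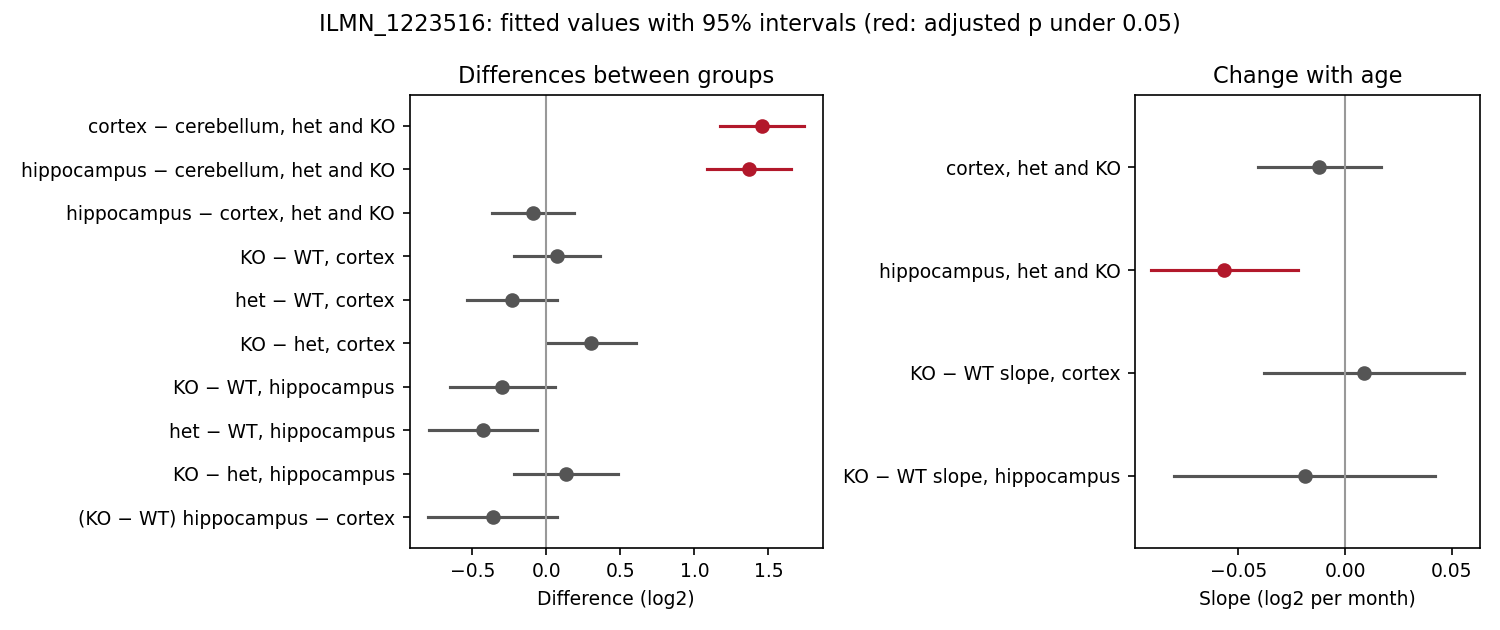
Fitted differences of ILMN_1223516 between regions and genotypes (left, log2) and slopes with age (right, log2 per month), as points with 95% intervals from limma, in red where the adjusted p was under 0.05. The region differences against cerebellum, 1.46 and 1.37, and the slope in hippocampus, -0.056, are in red, and the other 11 values are in gray. For the comparisons with WT mice the color carries no test, as the rule used the WT arrays.

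The 15 near probes were measured on the same arrays as ILMN_1223516, and their region differences were also tested on arrays that did not choose them. On the het and KO arrays, 15 of 15 were higher in cortex than in cerebellum, by 0.99 to 4.02 with a median of 1.75, and 15 of 15 were higher in hippocampus, by 0.78 to 3.41 with a median of 1.77. All of these passed the threshold, beside 26.7% of all probes tested that passed as higher in cortex and 26.2% as higher in hippocampus. The medians over all probes tested were -0.02 and -0.01. Most of the cerebellum arrays did not detect these probes either, so their sizes are not ranked against each other or against ILMN_1223516. Without mice 252, 307 and 317, 15 of 15 were again higher in both. There 4901 of all probes passed as higher in cortex and 4719 as higher in hippocampus. With these mice the counts were 4769 and 4680 of 17848 probes tested. The near probes were detected on 90.1% to 100% of the het and KO forebrain arrays and on 6.25% to 31.2% of the cerebellum arrays. Between hippocampus and cortex, 2 were higher and 3 lower in hippocampus, against 11% and 11.3% of all probes. Without mice 252, 307 and 317 these counts were 2 and 6. There 4416 of all probes passed, 48.6% of them as higher in hippocampus, against 3980 of 17848 with these mice. With age, 1 rose and 2 fell in cortex and 1 rose and 3 fell in hippocampus, beside 21.6% of all probes that rose and 17.7% that fell in cortex and 21.3% and 16.7% in hippocampus. In KO minus het, 0 of 15 passed in limma in either region, beside 0.513% of all probes in cortex and 1.12% in hippocampus. In cortex 0 of them had an unadjusted p under 0.05, beside 5.43% of all probes, and in hippocampus 4 of 15 had one, beside 12.7% of all probes.

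**Figure D5:**
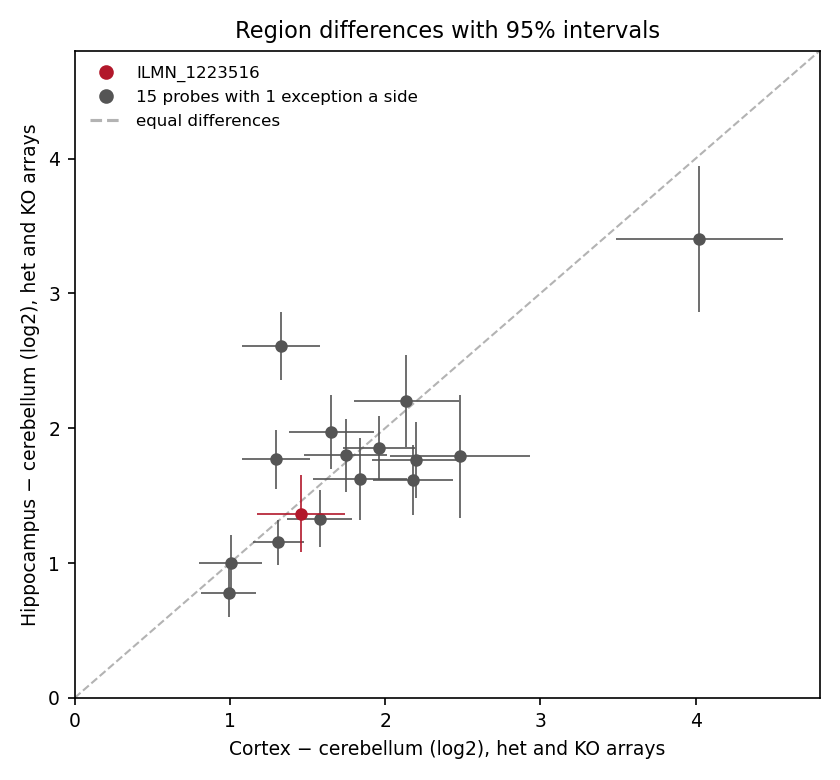
Hippocampus minus cerebellum against cortex minus cerebellum (log2) on het and KO arrays for ILMN_1223516 (red) and the 15 near probes (gray), with 95% intervals and a dashed line of equal differences. All lie above 0 on both axes, with ILMN_1223516 at 1.46 and 1.37.

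The probes whose levels followed that of ILMN_1223516 most closely over the 154 arrays were ILMN_2841788, with a Pearson correlation of 0.925, and ILMN_1223600, with 0.911. They were picked by that correlation after the values were seen, and the arrays share regions, mice and normalization, so these are descriptions. Within region and age, the correlations were 0.777 and 0.754. These values take the regions as labelled, so the arrays labelled cerebellum of mice 307 and 252 are among them. On those arrays ILMN_1223516 was at 7.85 and 7.54. ILMN_1223600 was at 10.73 and 8.41, beside a cerebellum mean of 5.26. Correlations without these arrays were not computed. ILMN_1223600 is among the 15 near probes, missing the rule through the cerebellum array of WT mouse 317, and its region differences were 4.02 in cortex and 3.41 in hippocampus. The level of ILMN_2841788 was 7.57 in cortex, 7.51 in hippocampus and 5.48 in cerebellum on average over arrays. Among the other 25696 probes, 464 had a correlation over 0.7 with ILMN_1223516, and the 15 near probes had correlations of 0.572 to 0.911. The near probes were chosen by nearly the same contrast of regions, so a correlation across regions comes with that choice. Within region and age, again as labelled and over all arrays, their correlations ran from -0.002 over a median of 0.324 to 0.754.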

How the data were processed

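The deposited bead array table holds, per the file headers, an intensity for each probe and array and, in the next column, its detection p-value, neither of them normalized by the authors. Per the labels' protocols, a Trizol extraction with DNase and a column clean-up preceded biotin labelling for Illumina arrays; the image reading steps are not given in the sources used here. The table's 9 signal columns that match no sample were not used. Replicates are mice, numbered by the labels, and the same mouse gave up to 3 regions. Arrays were normalized together with neqc in limma 3.58.1 (R 4.3.3), with control beads inferred from the detection p-values and an offset of 16, and probes detected on at least 3 arrays of a fit were tested. ILMN_1223516 and the 15 near probes all passed that filter.

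Genotype was fitted per region over the WT, het and KO arrays together, with age as a factor and sex as a covariate. Sex was set midway at 12 months, where the labels give none. Region was fitted over het and KO arrays with the mouse as a random block (consensus correlation 0.049; 0.094 in the fit of the KO effect between regions), the pairing coming from the mouse numbers in the labels. Adjusted p-values are Benjamini-Hochberg over all probes tested, with a threshold of 0.05, and intervals are at 95%. The fits were also run on simulated data, drawn independently around the mean of each probe with known changes added. Those data held no effect of mouse, age or background, so they do not test how the fits handle these, and their outcome is not given here. Alternatives were quantile or median scaling without background correction, neqc per region, no filter, no sex term, array weights, each age or array left out and no block. The probe and the gene lists were chosen with earlier results of these data known, and the lists and promoter motifs planned could not be applied without gene names. ILMN_1223516 and the probes nearest the threshold are named by rule; the most correlated probes were chosen after their values were seen.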

Additional observations from a re-analysis of the deposited data

Results flagged for a closer look

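Groups of 4 to 10 arrays of a region, genotype and age were examined. These were 9 groups, all of 2-month mice, as the groups of other ages held fewer than 4 arrays and were not examined. Among the 9 groups, 1 held an array far from the others in its level of ILMN_1223516, and chance alone marks about 1 in 20 groups. It was the array labelled cerebellum of KO mouse 252 of 2 months, at 7.54 on the log2 scale, while the other 4 arrays of that group lay between 5.06 and 5.24. The gap to its nearest neighbour was 0.929 of the group's range, against a critical value of 0.71. This array lay among the forebrain arrays on the main axis of variation, at -3.92. The part of that position in the level was not tested.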

How the results depend on the processing

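Over 14 comparisons of ILMN_1223516 and 174 alternatives, 168 kept the direction and the side of the threshold, 5 reversed and 1 lost the call. The comparisons that had passed kept the call in 13 of 13 alternatives for cortex minus cerebellum and 13 of 13 for hippocampus minus cerebellum. The slope in hippocampus kept it in 12 of 13. The other comparisons had not passed, and staying on that side of the threshold says little about them. Some of the 14 compare with the WT arrays that chose the probe, and for those the side of the threshold carries no test. Leaving out 1 array was run for KO minus WT and KO minus het, in 143 fits. KO minus WT, a description, ran from 0.028 to 0.12 in cortex and from -0.37 to -0.23 in hippocampus. KO minus het, which had not passed, ran from 0.18 to 0.35 in cortex and from 0.032 to 0.19 in hippocampus, and passed in none of its fits. Without age 18 months, the slope in hippocampus was -0.022 and no longer passed (adjusted p 0.53), the KO by month value in hippocampus was 0.016 and hippocampus minus cortex was 0.067. Without age 2 months, KO minus het in cortex was -0.054 and het minus WT in cortex was 0.13, and without age 9 months KO minus het in hippocampus was -0.014. The cause of the 5 reversals was not tested, and those that do not compare with WT mice had not passed the threshold in the main fit. With no replicate block for the mouse, the region differences were 1.46, 1.36 and -0.09 for cortex minus cerebellum, hippocampus minus cerebellum and hippocampus minus cortex. The KO effect in hippocampus minus that in cortex was -0.37, so the pairing by mouse changed no call of ILMN_1223516. Over all probes the region differences gave 10083, 9640 and 3771 calls without the block, against 10212, 9801 and 3980 with it. Over all alternatives, cortex minus cerebellum ran from 0.54 to 1.68 and hippocampus minus cerebellum from 0.52 to 1.58, with adjusted p up to 8.85e-12 and 7.56e-10.

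The number of probes that meet the rule depends on it: 0 with a p-value under 0.01 in forebrain, 0 with 0.1 or more in cerebellum, 0 on het arrays and 0 on KO arrays, and 16 with 1 exception a side. It was 18 without age 2 months, 2 without 6, 3 without 12, 2 without 16 and 2 without 18 months, and 6 without mice 252, 307 and 317. Counts of all probes that passed moved by over 1.5 times in several comparisons. KO minus WT gave 124 in cortex and 88 in hippocampus, against 265 and 144 with array weights and 63 and 37 without age 18 months; KO minus het gave 86 and 190, against 131 and 323 with array weights and 38 and 64 without age 18 months. KO by month in cortex gave 2 against 0 to 5, and in hippocampus 3 against 0 to 3, het minus WT in cortex 5 against 3 to 7 and the KO effect between regions 0 against up to 6 with array weights. A signal this close to background limits what can be said of the cerebellum level.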
